A study of Sus scrofa with 6 samples.

Results

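The Wnt antagonists and receptors of the pig ventricle were examined as 10 genes taken by name from the deposited gene table, which lists 13288 genes. They comprise 5 secreted antagonists (SFRP1, SFRP2, SFRP4, FRZB and DKK3), 3 receptor genes (FZD4, FZD7 and LRP6), the intracellular relay CTNNB1 and the feedback gene AXIN2. Each of the 10 had a row in the table. RNA had been sequenced from ventricular tissue of Tibetan minipigs, which were males according to the study's methods. A group of 3 had undergone descending aortic constriction (DAC), which loads the left ventricle with pressure, and a group of 3 had undergone sham surgery, a thoracotomy with no constriction. Tissue was collected at week 12 after surgery, and each column of the table is 1 animal. The sham animals are numbered 1 to 3 and the DAC animals 4 to 6, as replicates. The study's methods describe general anesthesia for the surgery, penicillin afterwards and no transgene. The age of the animals and the part of the ventricle that was sampled are not given in the sources used here for these libraries.

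Wnt proteins are secreted lipid-modified ligands that bind a Frizzled receptor together with the co-receptor LRP5 or LRP6. Without a ligand, a complex built on AXIN1 or AXIN2, APC and the kinase GSK3 marks beta-catenin for destruction, and with a ligand beta-catenin accumulates and switches on target genes such as AXIN2, which dampens the signal again. Secreted frizzled-related proteins, of which FRZB is one, carry a domain that resembles the ligand-binding part of Frizzled and can hold Wnt ligands outside the cell. In the heart the pathway is active in development, is mostly quiet in the adult, and has been linked to fibroblast activation after injury.

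Values are FPKM, fragments scaled to transcript length and to the mapped fragments of the library, so levels can be compared between genes per length. The 6 libraries differed little in the sum of FPKM (281377 to 308771). The ventricular myosin light chain MYL2 was at 4149 to 5033 FPKM in them and was at 0 in none of them. DAC replicate 5 stood apart in its mitochondrially encoded transcripts, which made up 32.8% of its summed FPKM against 27.1% and 27.2% in the other DAC libraries and 24.0% to 25.3% in the sham libraries. The number of fragments behind a value is unknown. For the comparison, the log2 of FPKM plus 1 was fitted with limma over the 11029 genes that had at least 1 FPKM in at least 3 samples, and fold changes on this scale understate the change of genes with low FPKM. A gene was called at an unadjusted P under 0.05, as a differentially expressed gene (DEG). No gene of the table passed an adjusted P of 0.05, the smallest being 0.106 by limma with Benjamini-Hochberg adjustment, and 939 genes were called at the unadjusted threshold.

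In the DAC myocardium, 3 of the 8 tested members were called higher than in the sham myocardium. These were the secreted antagonists DKK3 and SFRP1 and the feedback gene AXIN2, with mean FPKM 5.57-fold, 2.04-fold and 1.71-fold that of the sham group. None of the 8 was called lower. Over all genes tested, 3.25% were called higher and 5.27% lower, 8.51% in either direction. SFRP2 and FZD4 stayed below 1 FPKM in all 6 samples and were not tested. The median log2 fold change of the 8 tested members was 0.21, beside -0.016 over all genes tested. SFRP1 and AXIN2 were the 2 tested members whose groups did not overlap, which was the case in 14.9% of all genes tested. None of the 3 called members passed adjustment over all genes (adjusted P of 0.553 to 0.585 by limma), nor in any alternative fit (adjusted P of 0.321 to 0.896 by limma). The call rests on the spread estimate that limma shares across genes: with each gene's own variance 0 of the 8 were called.

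**Figure D1:**
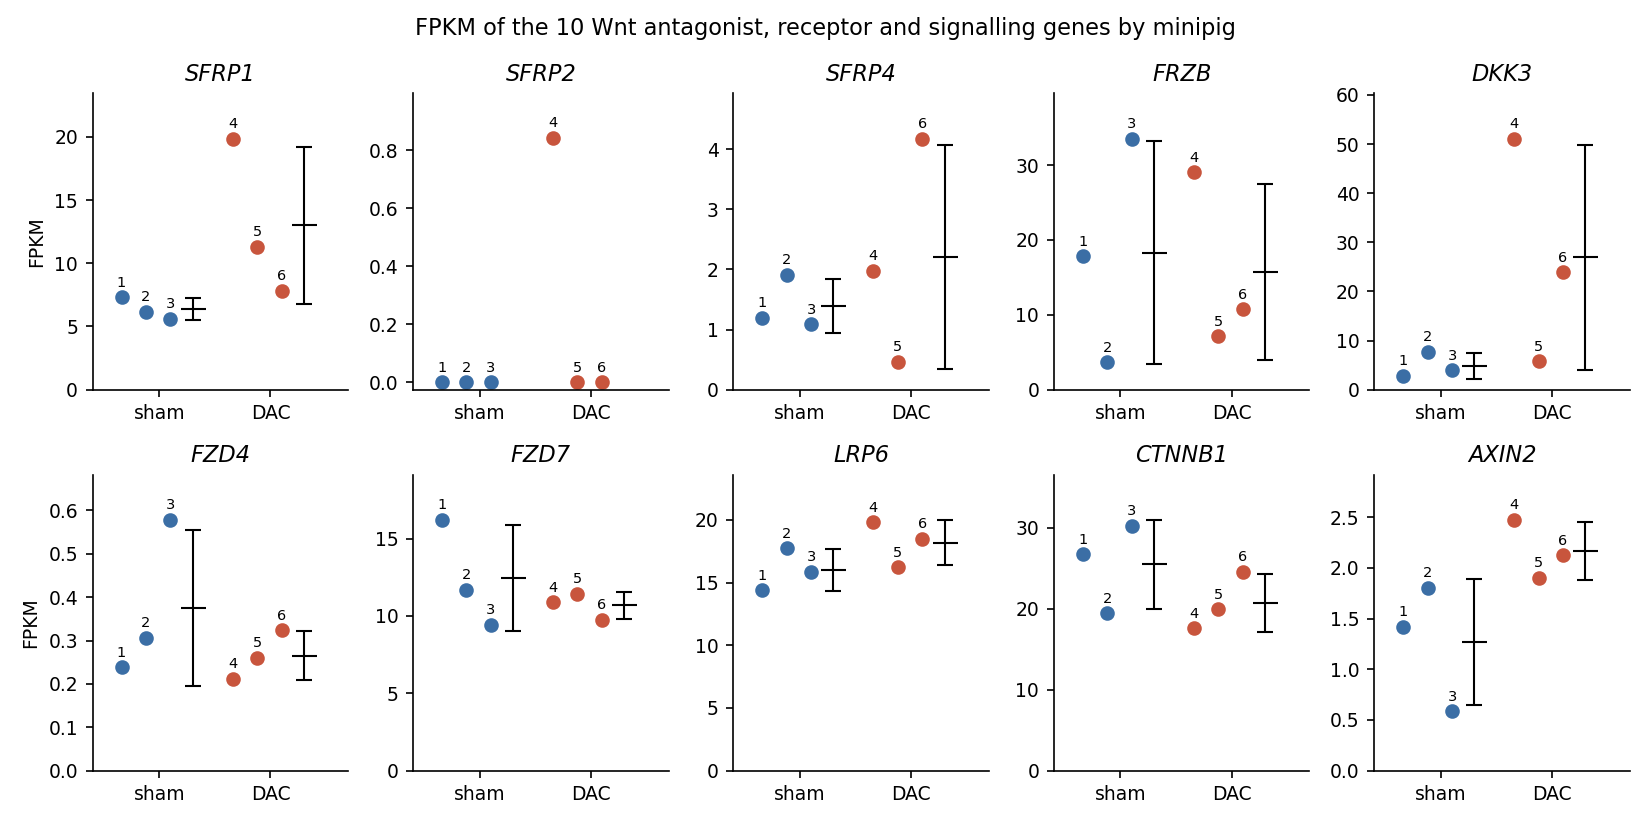
FPKM of the 10 genes in each minipig, one panel per gene with its own linear axis. Points are numbered by replicate and the black marks give the group mean with its SD (n = 3), except for SFRP2, which was listed at 0 in 5 of 6 samples. SFRP1 and AXIN2 show DAC points above all sham points, and FRZB and DKK3 show the widest scatter within a group.

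Among the secreted antagonists, SFRP1, which binds Wnt ligands outside the cell, was at 7.31, 6.18 and 5.60 FPKM in sham replicates 1 to 3 and at 19.9, 11.3 and 7.82 FPKM in DAC replicates 4 to 6. The lowest DAC animal lay just above the highest sham animal, and DAC replicate 4 was far above the rest. SFRP1 (ENSSSCG00000025822, chromosome 17 from 10436426 to 10489748) averaged 6.36 ± 0.869 FPKM (SD, n = 3) after sham surgery and 13.0 ± 6.19 FPKM (SD, n = 3) after DAC. Its log2 fold change was 0.84 with a standard error of 0.29 and a 95% interval from 0.15 to 1.53 (limma, unadjusted P = 0.0239, adjusted P = 0.553). The exact two-sided permutation P was 0.10, the smallest that 3 animals against 3 allow. With DAC replicate 4 left out the log2 fold change was 0.51 and SFRP1 was still called. It lost the call without sham replicate 2 (limma, unadjusted P = 0.0571) and without sham replicate 3 (limma, unadjusted P = 0.0693).

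DKK3, a secreted member of the Dickkopf family whose action on Wnt signaling is less settled than that of its relatives, had the largest fold change of the tested members. It was at 2.84, 7.74 and 3.91 FPKM in sham replicates 1 to 3 and at 51.1, 5.76 and 23.9 FPKM in DAC replicates 4 to 6. The high values were those of DAC replicates 4 and 6, while DAC replicate 5 lay inside the sham range, so the groups overlapped. DKK3 (ENSSSCG00000013401, chromosome 2 from 47385191 to 47446538) averaged 4.83 ± 2.58 FPKM (SD, n = 3) and 26.9 ± 22.8 FPKM (SD, n = 3). The log2 fold change was 1.91 with a standard error of 0.70 and a 95% interval from 0.26 to 3.57 (limma, unadjusted P = 0.0291, adjusted P = 0.556). The exact two-sided permutation P was 0.20. Without DAC replicate 5 the log2 fold change was 2.72 (limma, unadjusted P = 0.000702). With all 6 animals and mitochondrially encoded genes left out it was 1.95. The call was lost without sham replicate 1, sham replicate 3, DAC replicate 4 or DAC replicate 6 (limma, unadjusted P of 0.0849, 0.0711, 0.0876 and 0.0760), and the log2 fold change without DAC replicate 4 was 1.24.

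FRZB, a frizzled-related protein first known from cartilage, varied more widely within groups than DKK3 on the log2 scale, and its estimate had no stable sign. It was at 17.8, 3.63 and 33.5 FPKM in the sham group and at 29.1, 7.18 and 10.7 FPKM in the DAC group. Sham replicate 2 and DAC replicate 5 were lowest, sham replicate 3 and DAC replicate 4 highest, and the groups overlapped over nearly their whole range. Within the sham group alone the highest value was 9.22 times the lowest. The log2 fold change of FRZB (ENSSSCG00000016018, chromosome 15 from 88332858 to 88377248) was -0.019 with a standard error of 0.77, and its 95% interval from -1.84 to 1.80 allows a large difference in either direction (limma, unadjusted P = 0.981). Its sign changed without sham replicate 1 (0.17), sham replicate 3 (0.61), DAC replicate 5 (0.38) or DAC replicate 6 (0.12), and the value fell to -0.84 without sham replicate 2 and to -0.56 without DAC replicate 4.

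SFRP4 and SFRP2, further frizzled-related proteins, were scarce in this tissue. SFRP4 (ENSSSCG00000035299, chromosome 9 from 108404042 to 108414311) was at 1.20, 1.91 and 1.09 FPKM in the sham group and at 1.98, 0.467 and 4.17 FPKM in the DAC group. The DAC animals held both the lowest and the highest value of the 6. The log2 fold change was 0.25 with a 95% interval from -0.74 to 1.25 (limma, unadjusted P = 0.566). With DAC replicate 6 left out it was -0.18, and with DAC replicate 5 left out it was 0.73, where SFRP4 was called higher (limma, unadjusted P = 0.0362). SFRP2 (ENSSSCG00000009004, chromosome 8 from 75337133 to 75345926) was listed at 0 in 5 samples and at 0.843 FPKM in DAC replicate 4, the animal that also had the highest SFRP1 and DKK3. No fold was computed for SFRP2.

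The antagonist transcripts were made up differently from animal to animal. FRZB held 61.1% and 76.0% of the summed FPKM of the 5 antagonists in sham replicates 1 and 3 and 18.7% in sham replicate 2, against 23.0% to 29.0% in the DAC group. DKK3 held 49.7% and 51.2% in DAC replicates 4 and 6, but 39.7% in sham replicate 2 and 23.3% in DAC replicate 5. In DAC replicate 5, SFRP1 was the largest part at 45.8%. The sum itself was 29.1, 19.5 and 44.1 FPKM in the sham group and 103, 24.7 and 46.6 FPKM in the DAC group, so the groups overlapped. Of 19 Wnt ligand genes looked up, 5 had a row in the table. Those 5 summed to 9.85 to 17.0 FPKM in the sham group and 8.98 to 15.1 FPKM in the DAC group. The ratio of the antagonist sum to the ligand sum was 1.71, 1.83 and 4.48 in sham replicates 1 to 3. In DAC replicates 4 to 6 it was 9.96, 2.75 and 3.09, so the groups overlapped. Only DAC replicate 4 was above all sham animals.

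**Figure D2:**
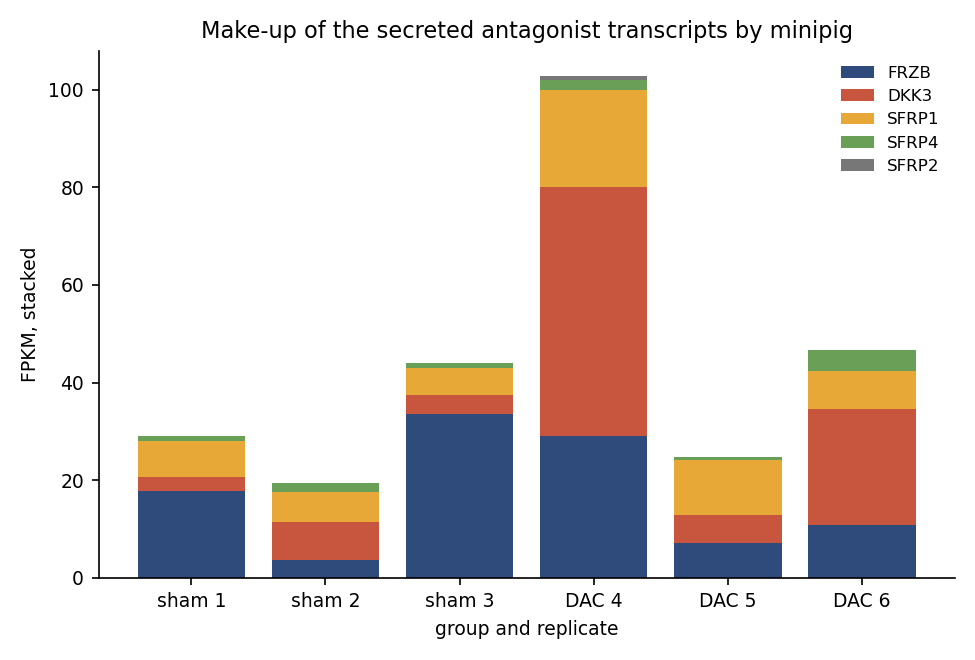
Stacked FPKM (y axis, from 0) of the 5 secreted antagonists in each of the 6 minipigs (x axis). The bar of DAC replicate 4 is the tallest at 103 FPKM, FRZB forms most of the bars of sham replicates 1 and 3, and DKK3 about as much as the rest together in DAC replicates 4 and 6.

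Of the 8 tested members, the 4 antagonists had the widest spread between animals of the same group on the log2(FPKM + 1) scale. The added 1 FPKM narrows the spread of genes with low FPKM, so the order of SFRP1 and AXIN2 may rest on this scale. In the sham group the highest FPKM was 3.08 times the lowest for AXIN2 and 1.31 times for SFRP1. In the DAC group it was 1.30 times for AXIN2 and 2.54 times for SFRP1. The residual standard deviation of FRZB within groups was 1.25 on the log2 scale, at percentile 99.8 of the tested genes, and that of DKK3 was 1.14, at percentile 99.6. SFRP4 and SFRP1 lay at percentiles 97.9 and 93.5. AXIN2 was at percentile 83.2, CTNNB1 at 77.6, FZD7 at 75.9 and LRP6 at 35.2. These percentiles describe the 6 libraries and carry no test.

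**Figure D3:**
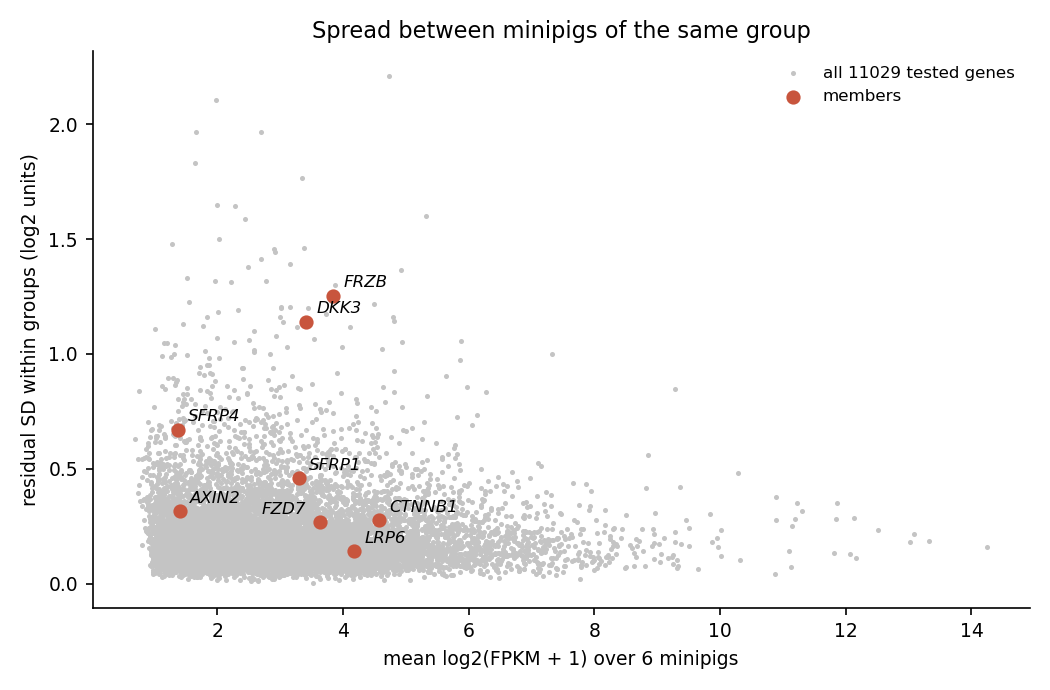
Residual standard deviation within groups (y axis, log2 units) against mean log2(FPKM + 1) over 6 minipigs (x axis) for all 11029 tested genes (grey) and the 8 tested members (red). FRZB at 1.25 and DKK3 at 1.14 lie above nearly all tested genes, and LRP6 lies within the bulk.

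Of the receptors, the co-receptor LRP6, which is phosphorylated on ligand binding and then draws AXIN1 to the membrane, had the narrowest spread within groups of the tested members. It was at 14.4, 17.7 and 15.9 FPKM in the sham group and at 19.8, 16.2 and 18.5 FPKM in the DAC group. DAC replicates 4 and 6 were above all sham animals and DAC replicate 5 was not. LRP6 (ENSSSCG00000000625, chromosome 5 from 60149028 to 60314689) had a log2 fold change of 0.18 with a 95% interval from -0.12 to 0.47 (limma, unadjusted P = 0.198).

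FZD7, a Frizzled receptor known from heart muscle formation, was at 16.2, 11.7 and 9.45 FPKM in the sham group and at 10.9, 11.4 and 9.75 FPKM in the DAC group. Only sham replicate 1 stood out, and the other 5 animals lay close together. FZD7 (ENSSSCG00000016111, chromosome 15 from 105644188 to 105648854) had a log2 fold change of -0.17 with a 95% interval from -0.61 to 0.27 (limma, unadjusted P = 0.381), which became 0.019 without sham replicate 1.

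FZD4, the Frizzled receptor through which norrin acts on vessels, was listed at 0.238, 0.307 and 0.579 FPKM in the sham group and at 0.212, 0.261 and 0.324 FPKM in the DAC group. All samples were low and the groups overlapped. The row of FZD4 (ENSSSCG00000014920, chromosome 9) runs from 20294885 to 20721766, which is 426882 bases. RefSeq places FZD4 of Sscrofa11.1 on 6466 bases at the end of that stretch, from 20714995 to 20721460. The row's stretch also covers the listed genes ME3 and PRSS23. How fragments in shared stretches were assigned is not given in the sources used here, and the part of this wide gene model in the low value was not tested.

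CTNNB1, which encodes beta-catenin, the relay of the pathway and a part of cell junctions, had the highest mean of the 10 genes over the 6 samples, though not within the DAC group, where the mean of DKK3 was higher. It was at 26.8, 19.5 and 30.3 FPKM in the sham group and at 17.6, 19.97 and 24.6 FPKM in the DAC group. Sham replicates 1 and 3 were highest, and sham replicate 2 lay among the DAC animals. CTNNB1 (ENSSSCG00000011274, chromosome 13 from 25137173 to 25208311) had a log2 fold change of -0.28 with a 95% interval from -0.73 to 0.17 (limma, unadjusted P = 0.188). Without sham replicate 2 it was -0.45 and called lower (limma, unadjusted P = 0.0351). The row overlaps the listed gene ULK4 on the other strand. It covers 71139 bases, while RefSeq places CTNNB1 on 44765 bases, from 25163550 to 25208314.

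AXIN2, the feedback inhibitor that is widely used as a readout of beta-catenin activity, was at 1.42, 1.80 and 0.586 FPKM in the sham group and at 2.47, 1.90 and 2.13 FPKM in the DAC group. All DAC animals lay above all sham animals, the closest being DAC replicate 5 and sham replicate 2. AXIN2 (ENSSSCG00000017265, chromosome 12 from 12311293 to 12343200) averaged 1.27 ± 0.623 FPKM (SD, n = 3) and 2.17 ± 0.288 FPKM (SD, n = 3). The log2 fold change was 0.52 with a standard error of 0.22 and a 95% interval from 0.0065 to 1.03 (limma, unadjusted P = 0.0478, adjusted P = 0.585). The exact two-sided permutation P was 0.10. AXIN2 kept its call without sham replicate 2 (limma, unadjusted P = 0.0161) and lost it when any other animal was left out. The unadjusted limma P was then 0.0601 (sham replicate 1 left out), 0.112 (sham replicate 3), 0.132 (DAC replicate 4), 0.0619 (DAC replicate 5) or 0.0898 (DAC replicate 6). Without sham replicate 3, the log2 fold change was 0.28. The row's stretch overlaps CEP112 in RefSeq, and the part of this overlap in the low values was not tested.

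**Figure D4:**
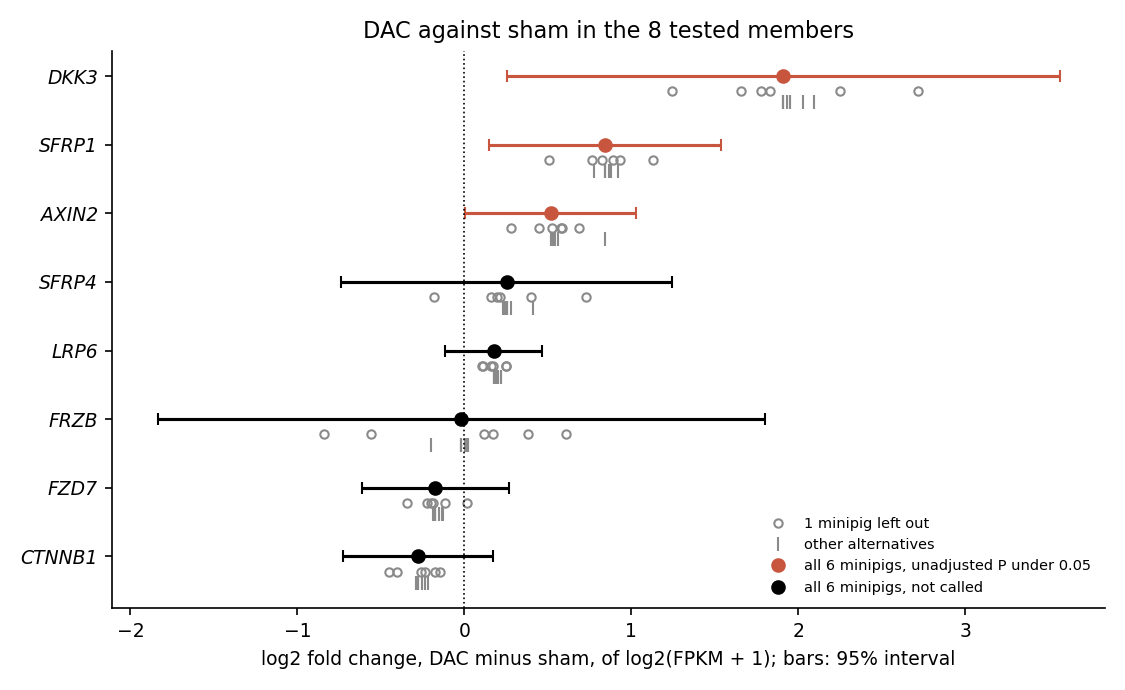
Log2 fold change of the 8 tested members (x axis, DAC minus sham, on log2(FPKM + 1)) with its 95% interval from all 6 minipigs. Red marks genes called at an unadjusted P under 0.05, grey circles the values with 1 minipig left out, and grey ticks the other alternatives. The intervals of DKK3, SFRP1 and AXIN2 lie above 0, and the values of FRZB fall on both sides.

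By level over the 6 samples, the order was CTNNB1 (23.1 FPKM), LRP6 (17.1), FRZB (17.0), DKK3 (15.9), FZD7 (11.6), SFRP1 (9.68), SFRP4 (1.80), AXIN2 (1.72), FZD4 (0.320) and SFRP2 (0.141). This order pools the groups, and DKK3 had the highest mean of the 10 in the DAC group (26.9 FPKM, beside 20.7 FPKM for CTNNB1) and came after SFRP1 in the sham group (4.83 beside 6.36 FPKM). Neighbours in this order overlapped over the 6 samples except SFRP1 against SFRP4 and AXIN2 against FZD4. The gene whose values over the 6 samples were most like those of FRZB on the log2 scale was SNX33 (Pearson r of 0.983), followed by RNF150 (0.975) and CDC23 (0.970). For FZD7 they were MTG1 (0.993), TSPO (0.990) and ANAPC2 (0.985). These correlations rest on 6 animals and were picked as the highest among all tested genes with a symbol.

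The rest of the pathway was read from lists by role. Of 104 further symbols, 62 had a row in the table. The symbols hold CCN4 and CCN5 also under their older names WISP1 and WISP2, and CCN5 had a row. Among those with no row were the nuclear partners LEF1, TCF7 and TCF7L1. The ligands RSPO1, RSPO2, RSPO3 and RSPO4 and the antagonists DKK1 and WIF1 had none either. The survey therefore covers the pathway in part, with 54 further genes tested. Of these, 1 was called higher and 3 were called lower in the DAC group, 7.41% in all beside 8.51% over all genes tested, and their median log2 fold change was -0.064. The split between directions depended on the scaling, with 3 called higher and 3 lower after removal of mitochondrially encoded genes, 2 and 4 after median scaling, and 0 and 4 after quantile normalization. DVL1, which relays the signal from Frizzled, averaged 36.4 ± 0.832 FPKM (SD, n = 3) after sham surgery and 29.3 ± 1.99 FPKM (SD, n = 3) after DAC. It had a log2 fold change of -0.30 (limma, unadjusted P = 0.0170). AXIN1, the scaffold of the destruction complex and the close relative of AXIN2, was at 14.6 ± 1.22 FPKM (SD, n = 3) and 11.4 ± 1.14 FPKM (SD, n = 3), a log2 fold change of -0.33 (limma, unadjusted P = 0.0255). Both had all DAC animals below all sham animals, as had TNFRSF19. Of the genes not called, PTK7 and TCF7L2 had all DAC animals above all sham animals, and CSNK1E had all below. Groups did not overlap in 14.9% of all genes tested. AXIN1 and AXIN2 thus had estimates of opposite sign in the same animals, and the difference between them was not tested. TNFRSF19, a receptor that beta-catenin can induce, was at 1.60 ± 0.396 FPKM (SD, n = 3) and 0.805 ± 0.258 FPKM (SD, n = 3), with a log2 fold change of -0.52 (limma, unadjusted P = 0.0147). BTRC, the ubiquitin ligase subunit that recognizes marked beta-catenin, had a log2 fold change of 0.43 (limma, unadjusted P = 0.0497) with overlapping groups. The adjusted P of these 4 genes was between 0.522 and 0.586 by limma. DVL1 lost its call without sham replicate 1 or DAC replicate 6, AXIN1 without sham replicate 1 or DAC replicate 5, and TNFRSF19 without sham replicate 1 or DAC replicate 6. BTRC kept its call only without DAC replicate 6 among the 6 fits with 1 animal left out.

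**Figure D5:**
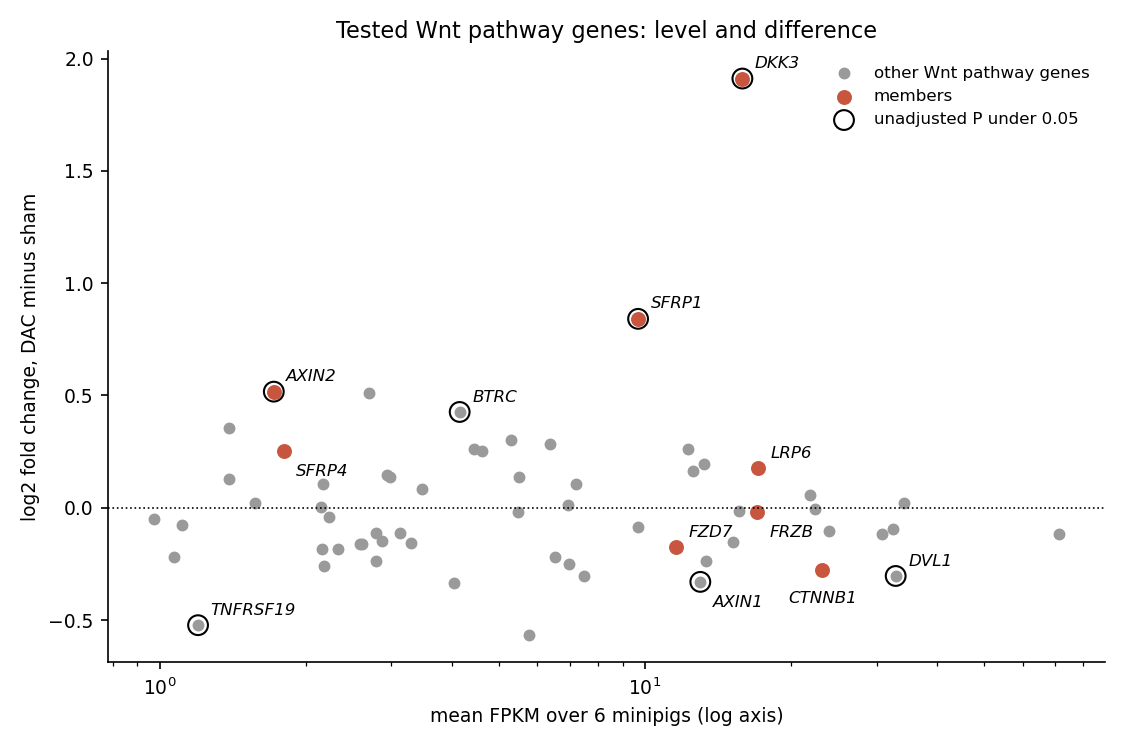
Log2 fold change (y axis, DAC minus sham) against mean FPKM over 6 minipigs (x axis, log scale) for the 8 tested members (red) and 54 other tested Wnt pathway genes (grey). Circles mark the 3 members and 4 other genes with an unadjusted P under 0.05. DKK3 at 1.91 and SFRP1 at 0.84 are the highest values on the plot.

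By role, none of the 4 tested Wnt ligands was called, and the most abundant were WNT9A with a log2 fold change of -0.34 and WNT5B with 0.51. None of the 4 other tested Frizzled genes was called, FZD5 with 0.16 and FZD6 with -0.24 being the most abundant. The same held for the 4 other co-receptors (LRP5 with 0.022 and RYK with -0.016), the 3 genes of the R-spondin axis (LGR4 with -0.57, limma, unadjusted P = 0.0526, and RNF43 with -0.11) and the secretion genes WLS (0.13) and PORCN (-0.22). None of the 9 tested nuclear partners of beta-catenin was called (BCL9L with -0.10, BCL9 with -0.25), nor any of the 7 tested planar cell polarity genes (PRICKLE2 with -0.12, DAAM1 with 0.26). Among 7 target and feedback genes other than AXIN2, only TNFRSF19 was called, and the cell cycle gene CCND1 (-0.12) and the growth regulator MYC (-0.30) were not. Of the secreted antagonists outside the 10 genes, DKKL1 (0.084) and KREMEN1 (-0.16) were tested and not called. In the destruction complex and relay list, the kinase gene GSK3A was at -0.10. Gene values in this paragraph other than P and FPKM are log2 fold changes.

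Markers of cell types were compared in the same animals, since in bulk tissue a change in the number of cells of a type and a change in RNA per cell cannot be told apart. The summed level of 10 fibroblast markers was 565 to 645 FPKM in the sham group and 767 to 898 FPKM in the DAC group. This separation came with the collagen genes COL1A1, COL1A2 and COL3A1. The other 7 markers summed to 256 to 290 FPKM in the sham group and 228 to 397 FPKM in the DAC group. For these 7 the groups overlapped, and DAC replicate 4 lay below all sham animals. Of the 10, the 4 genes COL1A1, COL1A2, COL3A1 and LUM were called higher and none was at 0. DCN, which is after COL3A1 the most abundant of the list, was at 139 to 158 FPKM in the sham group and at 99.8, 150 and 218 FPKM in DAC replicates 4 to 6, so its groups overlapped. The summed smooth muscle and pericyte markers were 159 to 178 FPKM in the sham group and 170 to 195 FPKM in the DAC group, with 1 of 8 called (CNN1, higher). Endothelial markers summed to 142 to 197 and 122 to 183 FPKM, with KDR (log2 fold change of 0.60) called higher and VWF (-0.49) and CLDN5 (-1.22) lower among 8. Of the other lists, RYR2 (-0.41) of 7 cardiomyocyte markers, CD163 (-0.43) of 4 tested leukocyte markers and WT1 (-1.23), the 1 mesothelial marker listed, were called lower, and none of 2 adipocyte markers nor the red cell marker HBB was called. Of the most abundant markers that were not called, the log2 fold change was 0.034 for RGS5 and 0.23 for TAGLN (smooth muscle and pericytes), -0.22 for CDH5 (endothelium), 0.046 for MYL2 and 0.085 for TNNT2 (cardiomyocytes), -0.088 for CSF1R (leukocytes, of which CD68 at 0.50 and PTPRC at 0.26 had the opposite sign and were not called), and -0.40 for LPL and 0.54 for FABP4 (adipocytes). LPL and FABP4 were the only tested genes of the adipocyte list. ADIPOQ and CIDEC of that list stayed below 1 FPKM in all 6 samples, and LEP and PLIN1 had no row. Whether LPL and FABP4 stand for adipocytes in this tissue was not tested. The part of these cell types in the results of DKK3, SFRP1 and AXIN2 was not tested.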

How the data were processed

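RNA from 6 ventricular samples was compared, 3 DAC against 3 sham, with groups taken from the sample titles. The authors deposited one table of FPKM with 1 column per minipig. The submitters' processing notes name HISAT2 and the build susScr11, without version or role, and the program that gave FPKM is not given in the sources used here. The highest sample of each listed gene has at least 0.500 FPKM. Depth is unknown, since at most 6 of at least 6970 low genes shared a log2 ratio between samples (to 4 decimals), which shows no whole-read steps, and precision comes from the spread between animals. Symbols are the authors' own, with 520 blanks filled by identifier. Positions are those of the table.

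With R 4.3.3 and limma 3.58.1, log2(FPKM + 1) was compared by a linear model with moderated test and variance trend, two-sided, over the 11029 genes that 3 or more samples held at 1 FPKM or above. P was adjusted by the Benjamini-Hochberg method. The fit was tested on simulated data. Exact permutation tests used FPKM. Python 3.11.15 with matplotlib 3.10.9 drew the figures. The members, lists, tests and alternatives were chosen with earlier results of these data known. Named genes are the members, other Wnt list genes with P under 0.05, the 2 most abundant per role or marker list, and the 3 genes most like the most abundant antagonist and Frizzled member. Further genes were named after their values were seen. Some were called, had groups that did not overlap, or had the opposite sign of a named gene. Others were not tested or had no row. The alternatives are given in the closing section. Protein and promoter sequences were not analysed here.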

Additional observations from a re-analysis of the deposited data

How the results depend on the processing

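The results were refitted with a pseudocount of 0.1, unmoderated variance, array weights, and a filter at 5 FPKM or none. Other fits used quantile normalization, scaling to the median, or removal of mitochondrially encoded genes. That removal also scaled each library to the same sum of the remaining FPKM. In further fits, each of the 6 samples was left out. At 5 FPKM only 6 of the 8 members were tested, and SFRP4, AXIN2, BTRC and TNFRSF19 had no value. Of 11029 genes 939 were called, 579 with a minimum of 5 FPKM (6271 tested) and 600 to 1029 with 1 sample left out. The share called higher was 38.1%, but 55.1% after removal of mitochondrially encoded genes, 47.2% after median scaling, 47.1% after quantile normalization and 49.2% without DAC replicate 5. The number of called members was 3, then 0 with unmoderated variance and 0 to 3 with 1 sample left out. No fit with 1 sample left out called SFRP1, DKK3 and AXIN2 together. Where 3 were called, they were DKK3, AXIN2 and CTNNB1 (lower) without sham replicate 2. Without DAC replicate 5 they were SFRP1, DKK3 and SFRP4. Of the other Wnt genes 4 were called, 2 with a minimum of 5 FPKM and 1 to 8 with 1 sample left out.

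With unmoderated variance the log2 fold changes of SFRP1 (0.84), DKK3 (1.91) and AXIN2 (0.52) lost their calls (limma, unadjusted P of 0.0879, 0.109 and 0.115), and AXIN2 also with a pseudocount of 0.1 (0.84) and after quantile normalization (0.54). FRZB turned positive with a pseudocount of 0.1 (0.012), after removal of mitochondrially encoded genes (0.021), after quantile normalization (0.020) and after median scaling (0.0032). With 1 sample left out, the log2 fold change was 0.51 to 1.13 for SFRP1, 1.24 to 2.72 for DKK3, 0.28 to 0.69 for AXIN2, -0.18 to 0.73 for SFRP4, -0.84 to 0.61 for FRZB, -0.34 to 0.019 for FZD7 and -0.45 to -0.15 for CTNNB1. LRP6 kept its sign and was not called in any of the 14 alternatives. SFRP2 and FZD4 entered only with no filter, at 0.29 and -0.11 (limma, unadjusted P of 0.262 and 0.420). No paired analysis was possible because the groups share no replicate number. The causes of these changes were not tested.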
